A study of Mus musculus with 6 samples.

Results

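Fatty acid binding proteins, long-chain acyl-CoA synthetases and the acyl-CoA binding protein form a short relay that handles fatty acids inside the cell. The genes Fabp3, Fabp4, Fabp5, Acsl1, Acsl3, Acsl4, Acsl5 and Dbi were taken by symbol from a table of read counts per Ensembl gene. All 8 were found among its 45193 genes, and all 8 were among the 12011 genes with enough reads to be tested. RNA sequencing compared cultured bone marrow-derived macrophages of mice modified to lack retinoid X receptors alpha and beta (RXRKO, 3 libraries) with wild-type cells (WT, 3 libraries). Per the labels, the RXRKO cells carried floxed RXRa alleles, LysMCre and RXRb-/-, while the WT cells came from C57BL/6J mice. Marrow of both genotypes was grown for 6 days in medium with L929-conditioned medium, which supplies the growth factor CSF-1, and both received serum-free medium and then the solvent DMSO for 3 h. No library was therefore exposed to an added receptor ligand.

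LysMCre places the Cre recombinase at the lysozyme M gene (Lyz2), which is active in macrophages and other myeloid cells, and no Cre or change of Lyz2 is given for WT mice. Loss of RXR, presence of Cre and loss of Lyz2 cannot be told apart in any difference given here. Any difference in strain background or mouse cohort between RXRKO and WT mice would also run with genotype. Rxrb stood at 9.27 ± 2.09 CPM in RXRKO libraries and at 66.7 ± 1.86 CPM in WT libraries (SD, n = 3 each; CPM are counts scaled to a common library total, here with TMM factors). Rxra stood at 109 ± 4.83 CPM in RXRKO libraries and 104 ± 6.7 CPM in WT libraries, and a count over the whole gene does not check the removal of a floxed part. Lyz2 in RXRKO libraries was at 0.186% of its WT level. Total counts were 17250051 to 25091019 in RXRKO libraries and 7880320 to 14957253 in WT libraries, so that depth and genotype cannot be told apart by design. The summed level of 6 macrophage markers was 6559 to 7718 CPM in RXRKO libraries and 5937 to 6930 CPM in WT libraries. Of the 6, Csf1r (1.31 times WT) and Itgam (1.57 times WT) rose, Fcgr1 (0.773 times WT) fell and 3 did not pass the test described below. By that test 9.77% of all tested genes rose and 9.61% fell. The labels call the replicates biological without naming the animals, so each p-value is set against library-to-library spread, which may be technical.

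Free fatty acids are poorly soluble and are carried in the cytosol by fatty acid binding proteins (FABPs). Acyl-CoA synthetases of the ACSL family then join long-chain fatty acids to coenzyme A, the step that commits them to storage, membrane synthesis or oxidation. The product is held by the acyl-CoA binding protein encoded by Dbi. Macrophages are known for high Fabp4 and Fabp5, and Fabp4 is a textbook target of the nuclear receptor PPARγ, which binds DNA as a pair with an RXR.

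Of the 8 genes, Acsl4 and Fabp5 rose in RXRKO macrophages, Dbi fell, and Fabp3, Fabp4, Acsl1, Acsl3 and Acsl5 did not pass the test (edgeR quasi-likelihood F test, Benjamini-Hochberg adjusted p below 0.05 over all tested genes). These 3 calls are 37.5% of the 8 genes, against 19.4% called over all tested genes, where 9.77% rose and 9.61% fell. The 8 genes were chosen with earlier results of these data known, so this share is a description only. The levels of the genotypes did not overlap for 4 of the 8 genes, against 36.9% of all tested genes. The median log2 fold change of the 8 genes was 0.02, beside a median over all tested genes of -0.005. In bulk RNA, fewer cells of a type and less RNA per cell cannot be told apart, here as in each result that follows.

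**Figure D1:**
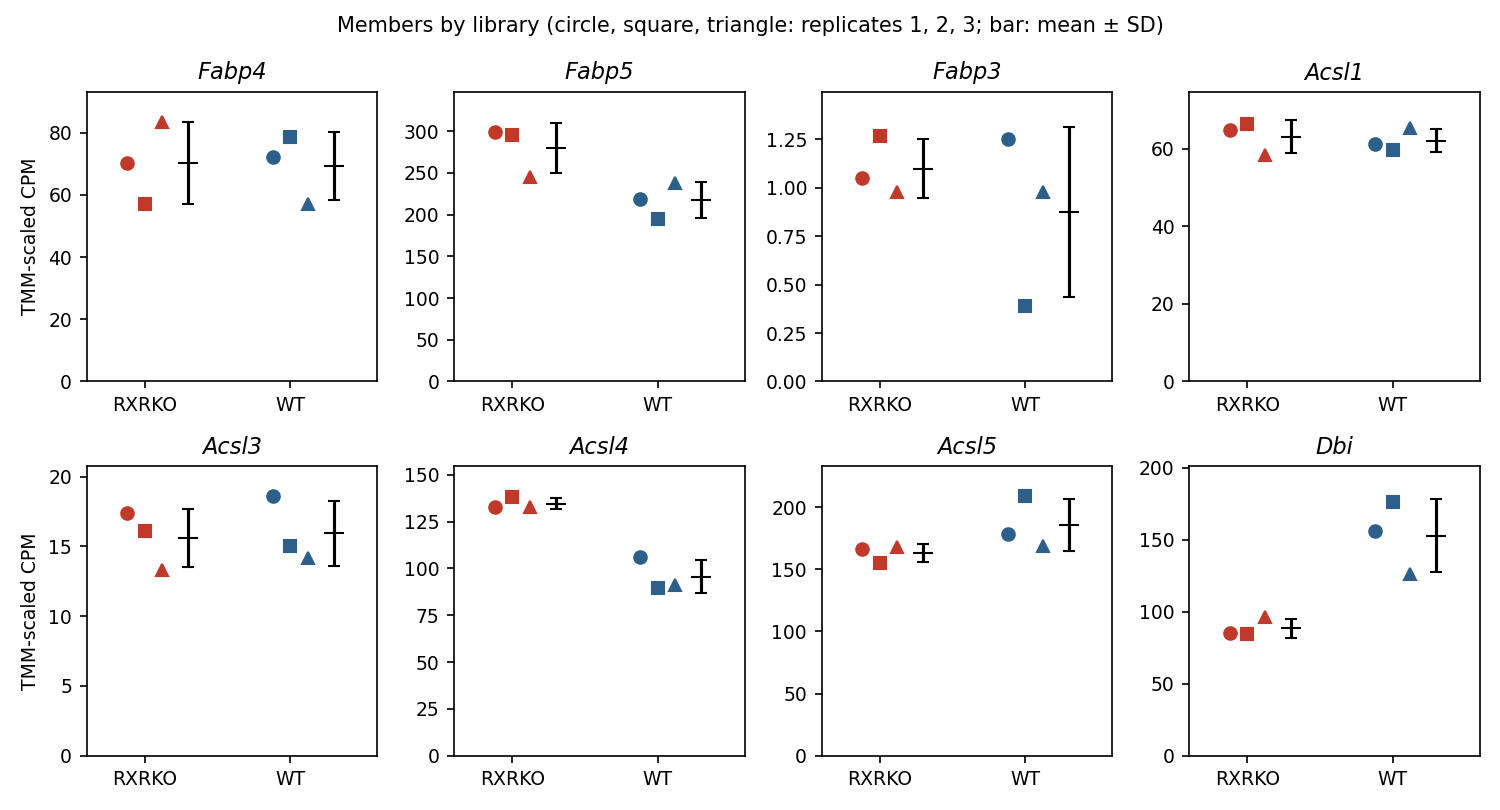
Level of each of the 8 genes in every library, as TMM-scaled CPM on axes that start at 0, with RXRKO libraries on the left and WT libraries on the right of each panel. Bars give the mean and SD (n = 3); the genotypes are apart for Fabp5, Acsl4 and Dbi and nearly touch for Acsl5, where the highest RXRKO library had 168 CPM and the lowest WT library 169 CPM.

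The FABP genes can be confused with each other only if their reads are alike, so the start of their coding sequences is shown. The lines give 75 bases, the length of a sequencing read, from base 12 to base 86 of the Fabp5 coding sequence (GENCODE M21 transcripts) and the aligned bases of Fabp4, Fabp3 and Gm6166, a processed pseudogene of Fabp5 on chromosome 9. Capitals mark bases that differ from Fabp5.
Fabp5: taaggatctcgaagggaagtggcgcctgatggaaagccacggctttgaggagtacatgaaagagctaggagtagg
Fabp4: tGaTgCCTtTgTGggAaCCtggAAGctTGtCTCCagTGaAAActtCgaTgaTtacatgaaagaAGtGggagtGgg
Fabp3: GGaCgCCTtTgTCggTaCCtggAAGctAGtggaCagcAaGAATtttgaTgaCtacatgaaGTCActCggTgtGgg
Gm6166: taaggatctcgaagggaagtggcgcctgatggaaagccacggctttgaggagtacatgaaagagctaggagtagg
Fabp4 and Fabp3 each differ from Fabp5 at 32 of these 75 bases, and Gm6166 at 0. Over the whole coding sequence Fabp4 was 60.4% identical to Fabp5 and 64.8% identical to Fabp3, and no run of identical bases between any pair of the 3 genes exceeded 14. Gm6166 shared a run of 179 identical bases with Fabp5, longer than a read, so reads of the gene and its copy can be exchanged.

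Fabp5, the epidermal FABP that macrophages also make, was the most abundant of the 8 genes per kb of coding transcript in both genotypes. It lies on the plus strand at chr3:10012548-10016607 (GRCm38, as are all positions of genes here). Fabp5 had 299, 295 and 245 CPM in RXRKO replicates 1, 2 and 3, against 219, 195 and 238 CPM in WT replicates 1, 2 and 3. Every RXRKO library was above every WT library, although RXRKO replicate 3 and WT replicate 3 were close. The level was 1.29 times that of WT (95% interval 1.11 to 1.49), which gave a log2 fold change of 0.36 (with an SE of 0.1, edgeR adjusted p = 0.0234). The call was lost without RXRKO replicate 1 (adjusted p = 0.117), RXRKO replicate 2 (0.0863), WT replicate 1 (0.0837) or WT replicate 2 (0.0836) by the same edgeR test. The 5 annotated pseudogenes of Fabp5 together held 65 reads in RXRKO libraries and 17 in WT libraries, or 0.381% and 0.235% of the reads given to Fabp5 in the same libraries, and the call held when they were added.

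Fabp4, the adipocyte FABP also called aP2, showed no difference that passed the test. It lies on the minus strand of the same FABP gene cluster, at chr3:10204088-10208576, 187 kb from Fabp5. Fabp4 had 70.1, 56.9 and 83.3 CPM in RXRKO libraries, against 72.1, 78.6 and 57.1 CPM in WT libraries. The genotypes overlapped, and in each genotype the library with the most reads had the lowest Fabp4 (RXRKO replicate 2 and WT replicate 3); the part of depth in this was not tested. The means were 70.1 ± 13.2 CPM in RXRKO and 69.3 ± 11 CPM in WT libraries, which gave a log2 fold change of 0.02 (with an SE of 0.14, edgeR adjusted p = 0.936). The 95% interval of the fold, 0.817 to 1.26, leaves room for a change of either sign within that range. Between the neighbours Fabp5 and Fabp4 lie Pmp2, the myelin FABP gene, and Fabp9, a testis FABP gene, each with 0 reads in all 6 libraries.

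Fabp3, the heart FABP (chr4:130308595-130315463), was near the limit of detection. It had 18, 32 and 18 reads in RXRKO libraries, against 12, 3 and 15 reads in WT libraries. These came to 1.05, 1.27 and 0.978 CPM in RXRKO libraries and 1.25, 0.391 and 0.98 CPM in WT libraries. The genotypes overlapped, and the 95% interval of the log2 fold change ran from -0.58 to 1.15 (estimate 0.28, SE 0.4, edgeR adjusted p = 0.669). The pseudogene Fabp3-ps1, 99.254% identical over its aligned bases, held 3 reads in RXRKO libraries and 0 in WT libraries, and exons of Zcchc17 on the other strand overlap 81 bases of Fabp3. Its level is therefore uncertain by more than counting error.

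The abundant FABP genes were also set against each other. Reads of Fabp5 over reads of Fabp4 were 4.26, 5.18 and 2.94 in RXRKO libraries, against 3.03, 2.47 and 4.17 in WT libraries. The ratio averaged 4.13 ± 1.12 in RXRKO and 3.22 ± 0.863 in WT libraries (SD, n = 3 each), and the genotypes overlapped. Markers of adipocytes, the cell type best known for Fabp4, were nearly absent: the 7 markers summed to 0.159 to 0.815 CPM in RXRKO libraries and 0.261 to 0.327 CPM in WT libraries, and the adipokine gene Adipoq had 4 reads in RXRKO and 1 in WT libraries.

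Among the synthetases, Acsl4 rose and the others did not pass the test. ACSL4 prefers arachidonic acid and other polyunsaturated fatty acids and is known for supplying the phospholipids oxidised in ferroptosis. Acsl4 lies on the minus strand of chrX:142317993-142390535. It had 133, 138 and 133 CPM in RXRKO libraries, against 106, 89.7 and 91.4 CPM in WT libraries. The RXRKO libraries lay close together, and all 3 were above the highest WT library. The means were 134 ± 2.85 CPM in RXRKO and 95.6 ± 8.73 CPM in WT libraries. The level was 1.41 times that of WT (95% interval 1.24 to 1.6), which gave a log2 fold change of 0.49 (with an SE of 0.09, edgeR adjusted p = 0.00154). It passed under all 16 alternative settings, between 0.45 and 0.57 on the log2 scale.

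Since Acsl4 is X-linked, genes that mark the sex chromosomes are given beside it. Xist, the RNA that coats an inactive X chromosome, had 209, 267 and 236 CPM in RXRKO libraries and 0 reads in each WT library. The Y-linked genes Ddx3y, Eif2s3y, Kdm5d and Uty were read in every library and fell in RXRKO libraries, with Ddx3y at 51.7 ± 3.23 CPM in RXRKO and 107 ± 5.6 CPM in WT libraries. The labels give no sex. Of 384 tested X-linked genes other than Xist, 41 rose (10.7%) and 25 fell (6.51%), with a median log2 fold change of -0.008 that lay close to that of all tested genes. Xist and Y-linked reads differed along with genotype in every library, so this difference and genotype cannot be told apart in any result here. The part of this difference in the Acsl4 result and in the others was not tested.

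Acsl5, a synthetase of mitochondria and endoplasmic reticulum (chr19:55251938-55297720), was the most abundant ACSL gene per kb. It had 166, 155 and 168 CPM in RXRKO libraries, against 178, 209 and 169 CPM in WT libraries. The RXRKO libraries were all lower than the WT libraries, by a narrow margin between RXRKO replicate 3 and WT replicate 3. The log2 fold change of -0.19 (SE 0.09, 95% interval -0.38 to 0.01) did not pass the test (edgeR adjusted p = 0.172). Zdhhc6, a palmitoyltransferase gene on the opposite strand, overlaps 8.31% of the Acsl5 exons. Zdhhc6 had 41.1 ± 2.62 CPM in RXRKO and 46.7 ± 4.98 CPM in WT libraries (edgeR adjusted p = 0.222). The use of strand in counting is not given in the sources used here, so reads of the overlap cannot be assigned.

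Acsl1, the main synthetase of heart and adipose tissue and one that inflammatory stimuli induce in macrophages (chr8:46471037-46536051), had 64.9, 66.3 and 58.3 CPM in RXRKO libraries, against 61.2, 59.7 and 65.5 CPM in WT libraries. Acsl3, which serves lipid droplet formation (chr1:78657825-78707743), had 17.4, 16.1 and 13.3 CPM in RXRKO libraries, against 18.6, 15 and 14.2 CPM in WT libraries. The genotypes overlapped for both genes. The 95% interval of the log2 fold change was -0.17 to 0.21 for Acsl1 (estimate 0.02, SE 0.09, edgeR adjusted p = 0.897). For Acsl3 it was -0.34 to 0.29 (estimate -0.02, SE 0.14, edgeR adjusted p = 0.932). Utp14b shares 244 bases of exon with Acsl3 on the same strand and did not pass the test either. Gm45244, a gene model awaiting experimental support, overlaps 9.91% of the Acsl1 exons on the opposite strand, so part of the Acsl1 reads is also uncertain.

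Within the ACSL family, Acsl4 made up more and Acsl5 less of the summed level in each RXRKO library than in any WT library. Levels of different genes were compared per length, as CPM per kb of the union of all annotated exons and, because retained introns lengthen that union, also per kb of exons of protein-coding transcripts, an addition made after the lengths were seen. Per kb of coding transcript, Acsl4 held 31.6, 33.4 and 32.5% of the ACSL level in RXRKO libraries, against 26.2, 21.6 and 24.1% in WT libraries. Acsl5 held 43.9, 41.7 and 45.7% in RXRKO libraries, against 49.1, 55.9 and 49.7% in WT libraries. Neither share overlapped between the genotypes. Acsl1 held 18.7 ± 1.13% in RXRKO and 19.1 ± 1.83% in WT libraries, and Acsl3 held 5.03 ± 0.623% in RXRKO and 5.33 ± 0.718% in WT libraries. Per kb of all exons the mean share of Acsl4 was 36.6% in RXRKO and 27.1% in WT libraries, and that of Acsl5 was 49.2% in RXRKO and 58.2% in WT libraries. Reads of Acsl4 over reads of Acsl5 were 0.802, 0.891 and 0.791 in RXRKO libraries and 0.593, 0.43 and 0.539 in WT libraries. These shares restate the CPM values on another base and were given no test of their own.

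**Figure D2:**
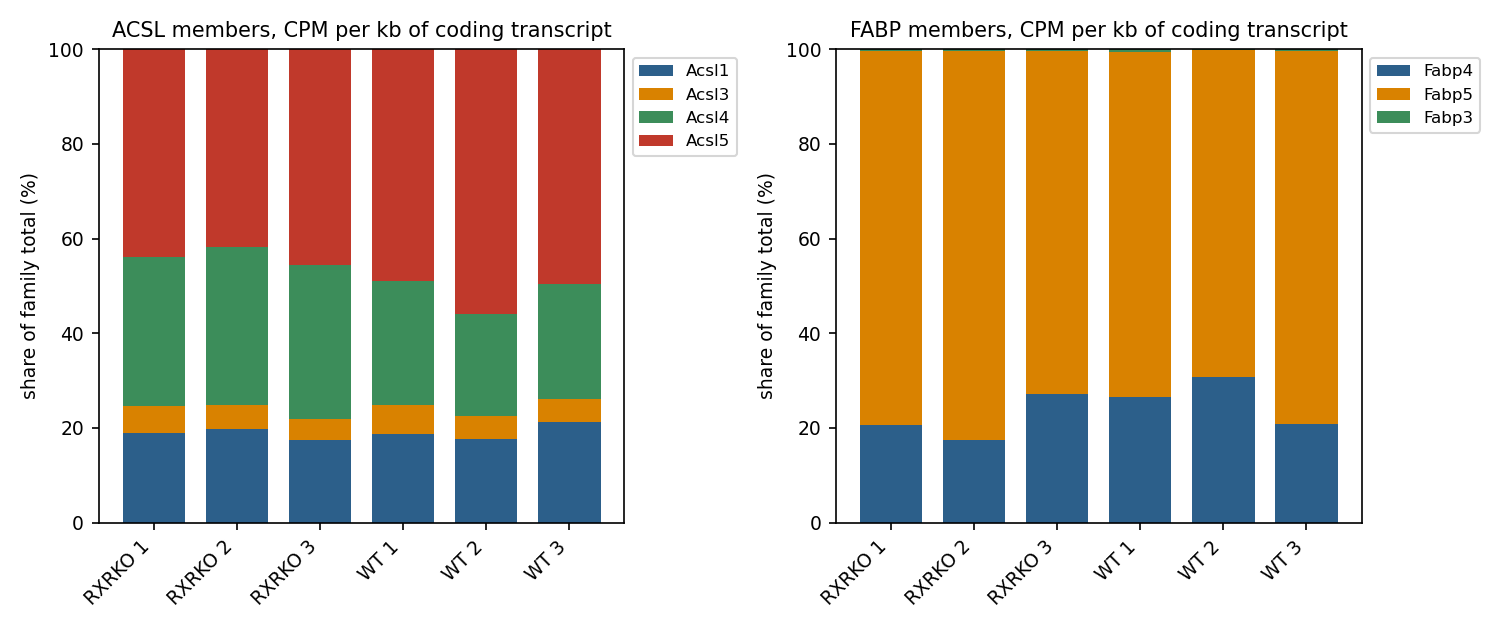
Share (%) of each gene in the summed level of its family in every library, per kb of coding transcript, for the 4 ACSL genes (left) and the 3 FABP genes (right), RXRKO libraries before WT libraries. The Acsl4 band is wider in each RXRKO library (31.6 to 33.4%) than in any WT library (21.6 to 26.2%), while the Fabp4 band overlaps between the genotypes.

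No pair of ACSL coding sequences shared a run of identical bases as long as a read, and the longest run was 21 bases, between Acsl3 and Acsl4 (65.5% identity). Acsl1 and Acsl5 were 63.6% identical with a longest run of 18 bases. The other 4 pairs were 50.2 to 52.5% identical.

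Dbi fell in RXRKO macrophages to 58% of the WT level. It encodes the acyl-CoA binding protein (ACBP), also called diazepam-binding inhibitor, and lies on the minus strand at chr1:120113280-120121078. Dbi had 85.1, 84.3 and 96.2 CPM in RXRKO libraries, against 156, 176 and 126 CPM in WT libraries. All RXRKO libraries were below all WT libraries, and the WT libraries were more spread. The means were 88.6 ± 6.64 CPM in RXRKO and 153 ± 25.3 CPM in WT libraries, which gave a log2 fold change of -0.78 (with an SE of 0.11, 95% interval -1.03 to -0.53, edgeR adjusted p = 0.000432). The call held under all 17 alternative settings, between -0.91 and -0.48 on the log2 scale. Reads of Acsl4 over reads of Dbi, the genes with opposite changes, were 1.56, 1.63 and 1.38 in RXRKO libraries and 0.678, 0.51 and 0.727 in WT libraries. With opposite changes this ratio had to differ between the genotypes, so it restates the CPM values and adds no evidence. The Dbi pseudogene Gm12222 held 0 reads in RXRKO and 2 in WT libraries.

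**Figure D3:**
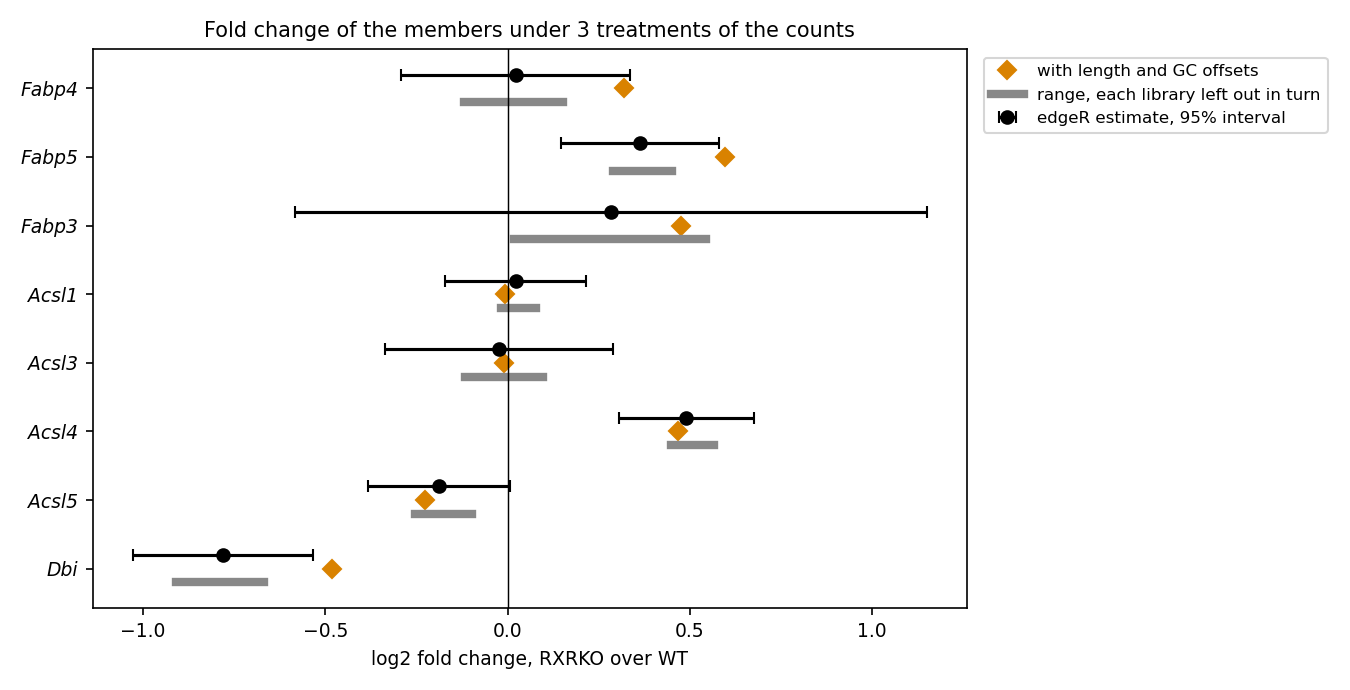
Log2 fold change of RXRKO over WT for the 8 genes: black points with 95% intervals from the edgeR fit, grey bars for the range when each library was left out in turn, and orange diamonds for the fit with transcript length and GC offsets. Acsl4 lies between 0.45 and 0.57 and Dbi between -0.91 and -0.48 in the bars and diamonds, while the bars of Fabp4, Acsl1 and Acsl3 cross 0.

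Transcript length moved with genotype across all genes and is given beside the 3 calls. Of 783 tested genes whose longest coding transcript was under 1000 bases, 28 rose and 141 fell (18%), with a median log2 fold change of -0.21. Of 2416 genes at 5000 bases or more, 528 rose (21.9%) and 124 fell, with a median of 0.16. Dbi has 569 bases and fell, and Acsl4 has 5280 bases and rose, the same way as the median of its length class. Fabp5 has 987 bases and rose, opposite to the median of its class. With length and GC offsets in the fit, an alternative added after the data were seen, the log2 fold change was -0.48 for Dbi (edgeR adjusted p = 0.00159), 0.47 for Acsl4 (0.000907) and 0.6 for Fabp5 (0.0055). The same fit gave 0.32 for Fabp4, which has 896 bases, again short of the threshold (edgeR adjusted p = 0.12). The cause of the length trend was not tested.

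**Figure D4:**
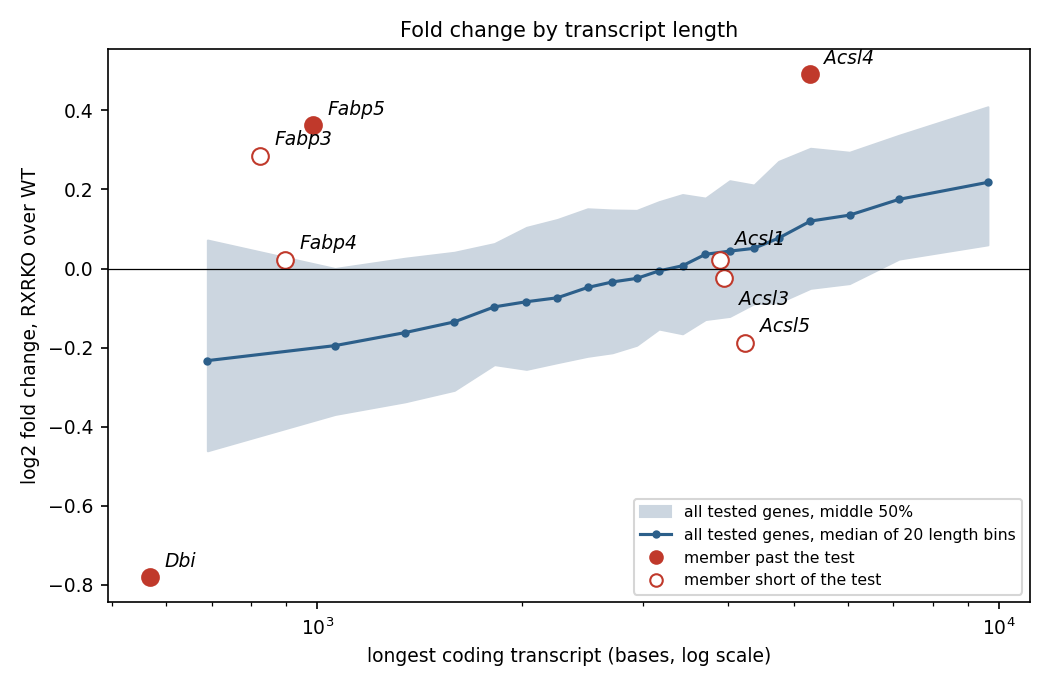
Log2 fold change of RXRKO over WT against the length of the longest coding transcript (bases, log scale), with the median and middle 50% of all tested genes in 20 length bins and the 8 genes as circles (filled where past the test). The median of all genes climbs with length; Dbi lies below it, Acsl4 and Fabp5 above it.

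The order of the 8 genes by level depended on the length used. Per kb of all exons, the order in RXRKO libraries was Fabp5 (78.3 ± 8.38 CPM per kb), Dbi (62.3 ± 4.67), Acsl5 (33.4 ± 1.45), Acsl4 (24.9 ± 0.527), Fabp4 (15.6 ± 2.94), Acsl1 (6.03 ± 0.409), Acsl3 (3.58 ± 0.486) and Fabp3 (1.33 ± 0.186). In WT libraries Dbi came first (107 ± 17.8 CPM per kb) and Fabp5 next (60.9 ± 6.11), and the rest kept the same order. Neighbours in the order did not overlap in any library, except Acsl4 (17.7 ± 1.61) and Fabp4 (15.4 ± 2.46) in WT libraries. Per kb of coding transcript, Fabp5 led in both genotypes with 283 ± 30.3 CPM per kb in RXRKO and 220 ± 22.1 in WT libraries, and Dbi followed with 102 ± 7.63 in RXRKO and 175 ± 29.1 in WT libraries. Fabp4 then ranked above Acsl5, with 78.3 ± 14.7 CPM per kb in RXRKO and 77.3 ± 12.3 in WT libraries, since its annotated exons shrink to 896 bases without the retained introns. On this scale the levels of Fabp5 and Dbi overlapped in WT libraries.

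Promoter sequence is shown for Acsl4, the gene that rose under every alternative setting run, 250 bases before the RefSeq start (GRCm38.p6), 5′ to 3′ on the gene's strand. Promoter windows of 5 of the 8 genes were used (Acsl1, Acsl3, Acsl4, Acsl5 and Fabp3), 6 windows in all. No window was available for Fabp4 and Fabp5. Dbi, the member that fell, was left out of the search by choice, so the counts below do not cover it. Among the 5 genes searched, only Acsl4 passed the test. Capitals mark the GC box GGGCGG on either strand, whose matches in Acsl4 overlap.
Acsl4, chrX:142390536-142390785, minus strand: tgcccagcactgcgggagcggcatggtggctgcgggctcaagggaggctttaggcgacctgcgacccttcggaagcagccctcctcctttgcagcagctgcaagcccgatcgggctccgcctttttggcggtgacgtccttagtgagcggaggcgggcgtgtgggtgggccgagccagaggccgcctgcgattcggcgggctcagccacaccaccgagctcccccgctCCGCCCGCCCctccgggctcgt
The Acsl4 window holds 2 GC boxes. The nuclear receptor half-site AGGTCA was in 0 of the 6 windows, against 14% of 32851 promoter windows of the same length, and its direct repeat AGGTCANAGGTCA in 0, against 0.0335%. CCAAT was in 3 of the 6 windows, against 33.8%, GGGCGG in 3, against 32.7%, and TATAAA in 0, against 12.4%. Both strands were searched, and AGGTCANAGGTCA contains AGGTCA. A window without a match says only that these letters are not in it.

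The genes with the most similar pattern over the 6 libraries were named for the 3 genes that passed, by the root mean square difference of centred log2 CPM among 9516 candidates. Heatr5a (0.032) and Tmem86a (0.0404) were nearest to Fabp5, Pilra (0.0371) and Hcfc2 (0.0434) to Acsl4, and Rnaseh2b (0.0667) and Ung (0.0676) to Dbi. Heatr5a had 209, 213 and 170 CPM in RXRKO libraries, against 148, 133 and 167 CPM in WT libraries. With so many candidates, close matches over 6 libraries are a description only.

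The lists of related genes below were chosen with earlier results of these data known. Their shares of calls are therefore a description only. Other carriers of the FABP fold were mostly silent. Of the 13 genes found on this list, which includes Scp2, 2 had enough reads to be tested. Of these, 1 fell and 1 did not pass, a share called of 50%, against 19.4% of all tested genes. Scp2, the sterol carrier protein of peroxisomes, fell to 71 ± 3.04 CPM in RXRKO libraries, against 89.9 ± 4.05 CPM in WT libraries (log2 fold change -0.34, edgeR adjusted p = 0.0125), and the call was lost without RXRKO replicate 1 or 2. Fabp7, the brain FABP, had 4.67 ± 0.313 CPM in RXRKO and 4.51 ± 1.1 CPM in WT libraries. Among other synthetases and fatty acid transport proteins, 2 of 8 tested genes rose and 6 did not pass, with a median log2 fold change of 0.14. The share called was 25%, near the 19.4% of all tested genes. The genes that rose were the acetyl-CoA synthetase genes Acss1 (30.8 ± 1.47 CPM in RXRKO and 21.9 ± 3.53 CPM in WT libraries, edgeR adjusted p = 0.0117) and Acss2 (0.49 on the log2 scale, edgeR adjusted p = 0.0284), which activate acetate and not long-chain fatty acids. Neither rose without WT replicate 1, and the list held 1 gene that rose without RXRKO replicate 1, RXRKO replicate 2 or WT replicate 3. Slc27a1, the fatty acid transport protein FATP1, had 240 ± 10.4 CPM in RXRKO and 269 ± 17.9 CPM in WT libraries and did not pass (edgeR adjusted p = 0.176).

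Other proteins with an acyl-CoA binding domain, the domain of ACBP, included 2 genes that fell and 3 that did not pass among 5 tested, with a median of -0.07. The calls were 40% of those tested, against 19.4% of all tested genes called in either direction. Eci2, a peroxisomal enoyl-CoA isomerase with such a domain, fell to 19.8 ± 2.8 CPM in RXRKO libraries, against 31 ± 4.15 CPM in WT libraries (log2 fold change -0.65, edgeR adjusted p = 0.00463). Acbd6 also fell (-0.35, edgeR adjusted p = 0.0253). The count was 1 without RXRKO replicate 1, RXRKO replicate 2, WT replicate 2 or WT replicate 3.

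Acyl-CoA thioesterases, which undo the work of the synthetases, held 3 genes that fell and 1 that rose among 9 tested, with 5 that did not pass and a median of -0.25 beside -0.005 for all tested genes. The calls were 44.4% of those tested, against 19.4% of all tested genes. Acot1, the cytosolic enzyme for long-chain acyl-CoA, fell to 4.76 ± 0.566 CPM in RXRKO libraries, against 14.5 ± 2.46 CPM in WT libraries (log2 fold change -1.61, SE 0.17, edgeR adjusted p = 2.99e-05). Its mitochondrial relative Acot2 fell by 0.75 on the log2 scale (edgeR adjusted p = 0.00228), and Acot7 fell by 0.3 (0.0448). Acot1 and Acot2 are close relatives, so reads may be exchanged between them. Acot11, a thioesterase with a lipid-binding START domain, rose (0.47, edgeR adjusted p = 0.00833). Without RXRKO replicate 3 the count that rose was 2. The count that fell was 2 without RXRKO replicate 1, RXRKO replicate 2, WT replicate 1 or WT replicate 2.

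Genes of fatty acid uptake and release held 4 that fell, 1 that rose and 3 that did not pass among 8 tested, with a median of -0.24. The calls were 62.5% of those tested, against 19.4% of all tested genes, and the count that fell was 3 without RXRKO replicate 1 or WT replicate 1. Cd36, the scavenger receptor that takes up fatty acids and oxidised lipoproteins, fell to 2263 ± 208 CPM in RXRKO libraries, against 3876 ± 299 CPM in WT libraries (log2 fold change -0.78, SE 0.09, edgeR adjusted p = 8.3e-05). Pnpla2, which encodes the triglyceride lipase ATGL, fell to 95.4 ± 2.32 CPM in RXRKO libraries, against 150 ± 5.69 CPM in WT libraries (edgeR adjusted p = 7.92e-05). The monoglyceride lipase gene Mgll fell and was low in both genotypes (1.41 ± 0.261 CPM in RXRKO and 3.94 ± 0.948 CPM in WT libraries, edgeR adjusted p = 0.00311). Lpl, the lipoprotein lipase gene, also fell. Lrp1, an endocytic receptor of lipoproteins, rose (0.48, edgeR adjusted p = 0.00693), a call that was lost with the length and GC offsets.

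Genes that esterify acyl-CoA into glycerolipids and sterol esters held 4 that fell, 1 that rose and 16 that did not pass among 21 tested, with a median of -0.08. The share called was 23.8%, near the 19.4% of all tested genes. Lpcat3, which places polyunsaturated acyl chains into phospholipids and is a known target of the RXR partner LXR, fell to 30.2 ± 3.42 CPM in RXRKO libraries, against 58.5 ± 2.9 CPM in WT libraries (log2 fold change -0.96, SE 0.1, edgeR adjusted p = 4.03e-05). The lipin genes Lpin2 (-0.42, edgeR adjusted p = 0.00234) and Lpin1 (-0.6, 0.00343) fell, as did Mogat2. Lpcat2, which makes platelet-activating factor and its precursors, rose to 56.8 ± 3.17 CPM in RXRKO libraries, against 42.5 ± 3.64 CPM in WT libraries (edgeR adjusted p = 0.0083). This call was lost without RXRKO replicate 1 or WT replicate 1, and 2 genes rose without RXRKO replicate 3. The count that fell was 3 without WT replicate 1 or WT replicate 3.

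Of the receptors to which FABPs and related carriers are known to deliver ligand, only Rarg passed among the 4 tested (25%, against 19.4% of all tested genes), and the median was 0.15. Pparg had 87.2 ± 1.72 CPM in RXRKO and 78.8 ± 6.24 CPM in WT libraries (log2 fold change 0.15, edgeR adjusted p = 0.26). Ppard, the receptor linked to FABP5, had 24.4 ± 1.15 CPM in RXRKO and 21.8 ± 5.04 CPM in WT libraries (edgeR adjusted p = 0.537). Rarg, a retinoic acid receptor, rose to 37.5 ± 1.03 CPM in RXRKO libraries, against 20 ± 1.22 CPM in WT libraries (edgeR adjusted p = 5.05e-05). With the length and GC offsets 1 of the 4 fell.

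Markers of other cell types are given beside these results. Neutrophil lineage markers summed to 641 to 776 CPM in RXRKO libraries and 812 to 947 CPM in WT libraries. Of the 7 markers, 3 fell (Ngp, Elane and Mpo), against 9.61% of all tested genes. S100a8, S100a9, Ly6g and Camp overlapped between the genotypes and did not pass. Endothelial markers summed to 6.8 to 7.66 CPM in RXRKO and 4.11 to 5.4 CPM in WT libraries, with the defining gene Cdh5 at 10 reads in RXRKO and 9 in WT libraries. Kdr rose to 5.69 ± 0.227 CPM in RXRKO libraries, against 1.19 ± 0.168 CPM in WT libraries (edgeR adjusted p = 2.7e-05), while Pecam1 fell to 0.793 ± 0.259 CPM in RXRKO libraries, against 2.41 ± 0.425 CPM in WT libraries (0.00596). Osteoclast markers summed to 25.6 to 30.5 CPM in RXRKO and 28.3 to 33.1 CPM in WT libraries, with Calcr at 0. Acp5 rose (14.2 ± 1.04 CPM in RXRKO and 7.96 ± 0.79 CPM in WT libraries, edgeR adjusted p = 0.00114) and Ctsk fell (14.2 ± 1.91 CPM in RXRKO and 21.7 ± 3.07 CPM in WT libraries, 0.00991). Stromal markers summed to 4.21 to 10 CPM in RXRKO and 7.68 to 9.73 CPM in WT libraries. B cell, T cell, erythroid and dendritic cell markers summed to at most 2.12 CPM in any library. The part of these differences in the Fabp5, Acsl4 and Dbi results was not tested.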

How the data were processed

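PolyA RNA of 6 libraries was sequenced single-end for 75 cycles (labels' protocols). TopHat2 2.0.7, DESeq and mm10 (GRCm38) are named in the submitters' processing notes. How reads were counted, and whether by strand, is not given in the sources used here. The authors deposited raw counts per gene, used for every main result, and a second table of log2 values. In genes with higher counts these values follow counts scaled by 1 constant per library and then logged. The constants were 0.906, 0.617 and 0.846 in RXRKO replicates 1, 2 and 3, and 1.61, 2.04 and 1.01 in WT replicates 1, 2 and 3. A count of 1 thus scales to below 1 only in the RXRKO columns, where it stands at 0 (3522, 2422 and 2852 genes in replicates 1, 2 and 3).

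edgeR 4.0.16 in R 4.3.3 was used as follows: filterByExpr (minimum count 10, minimum total 15), TMM factors, robust quasi-likelihood fit with genotype alone, Benjamini-Hochberg adjustment over 12011 genes, threshold 0.05. Each SE restates the F test. The fit was also run on simulated counts with a common spread for all genes, which checks the code and not the calls given here. Each library counted as 1 sample because the labels call the replicates biological. Replicates of a genotype differed beyond sampling noise (chi-square over degrees of freedom 3.68 to 22), which does not tell biological from technical spread. Alternatives were RLE and upper-quartile factors, no filter, CPM of at least 1 in 3 libraries, DESeq2 1.42.0, limma-voom (limma 3.58.1), limma on the authors' log2 values, a replicate block, thinning to 7880320 reads, leaving out each library, adding pseudogene counts, and, added later, length and GC offsets and coding-transcript length.

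Positions, lengths and coding sequences came from GENCODE M21. Pseudogenes were sought among its transcripts with blastn (at least 90% identity over 200 bases), in place of a genome search, and coding identity replaced protein identity. The members and lists were chosen with earlier results of these data known. Named genes were the 8 members, up to 3 that rose and 3 that fell per list by adjusted p, the 2 nearest patterns of each called member (average log2 CPM at least 2) and Rxra, Rxrb and Lyz2. Other genes named (pseudogenes, overlapping or neighbouring genes, sex-chromosome and cell type markers, Fabp7, Slc27a1, Lpl, Mogat2, Pparg and Ppard) were chosen after their values were seen.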

Additional observations from a re-analysis of the deposited data

How the results depend on the processing

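Acsl4 and Dbi kept their direction and call under every alternative run, and Acsl5 kept its direction without passing. Fabp3 did so under the 16 settings that gave a value, and had too few reads to be tested after thinning. The replicate block gave 1375 called genes (2327 without it), 1 member that rose in place of 2, and 0.362 for Fabp5 (edgeR adjusted p = 0.0858). Same-numbered libraries deviated with correlations of 0.0528, -0.275 and -0.259. With 3 libraries per genotype these deviations are tied to each other, so they cannot decide whether the numbers pair the libraries. Leaving out 1 library at a time gave 1286 (without WT replicate 1) to 2607 called genes (without WT replicate 3), and 1383 without RXRKO replicate 1. Members that rose ranged from 1 to 2, with 1 without RXRKO replicate 1 or 2 or WT replicate 1 or 2. Fabp5 ranged from 0.289 to 0.45, Fabp4 from -0.119 to 0.153 (below 0 without RXRKO replicate 3 or WT replicate 3), Acsl1 from -0.017 to 0.077 (below 0 without RXRKO replicate 2 or WT replicate 2) and Acsl3 from -0.118 to 0.098 (above 0 without RXRKO replicate 3 or WT replicate 1). The length and GC offsets turned Acsl1 to -0.006. The cause of these changes was not tested. Fabp3, with 68 reads in RXRKO and 30 in WT libraries, is limited by depth. Coding-transcript length in place of all exons changed levels per kb and their order. Of the other lists, the acyl-CoA synthetases had 1 gene that rose under DESeq2 or the block, the acyl-CoA binding domain proteins 1 that fell under thinning or the block, and the Scp2 call was lost under the block. The thioesterases had 2 that fell under limma-voom, limma on the authors' values, the block or the offsets, the uptake and release genes 3 under the block, and the esterification genes 5 with the offsets.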
